A study of Homo sapiens with 6 samples.

Results

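The genes described here are 10 components of the Notch pathway, chosen by name: the receptors NOTCH1, NOTCH2 and NOTCH3, the ligands JAG1, JAG2 and DLL1, the coactivator MAML1, and the targets HES1, HEY1 and NRARP. All 10 were found among the 26524 genes of the count table, and all 10 passed the filter on low counts, with 14964 genes in all. RNA was sequenced from SCC25, an established cell line from a squamous carcinoma of the human tongue. The control group has 3 libraries with no named hairpin, and the other group, called shLIS1 here, has 3 libraries from cells with a short hairpin against LIS1, the dynein regulator encoded by PAFAH1B1. The labels do not say whether the controls carried a hairpin, whether the hairpin libraries came from 1 hairpin or several, or whether replicates came from separate cultures, so p-values measure the spread between these libraries, which may be technical.

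Notch is a receptor on one cell that is switched on by a ligand on a neighbouring cell. Binding exposes the receptor to ADAM proteases and then to gamma-secretase, which frees its intracellular domain. That domain enters the nucleus, joins the DNA-binding protein RBPJ and a Mastermind coactivator, and turns on genes such as HES1, HEY1 and NRARP. In stratified epithelium Notch promotes the exit of keratinocytes from the basal layer, and NOTCH1 is often mutated in squamous carcinomas of the head and neck.

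Total counts ran from 15661916 to 22790599 per library, and levels are given in CPM, which scales each count to the TMM-adjusted size of its library. PAFAH1B1 was lower in all 3 shLIS1 libraries (log2 fold change -0.52 with SE 0.05, edgeR adjusted p = 6.53e-08), which left 69.8% of its control level, or 56.5% once a trend over transcript length and GC content was removed. Squamous markers were abundant, and KRT5, a basal keratin, was at 4520 to 5657 CPM. Of the 10 squamous markers 4 rose: KRT6A (0.27), KRT17 (0.17), CDH1 (0.16) and DSG3 (0.49). The 4 that fell were KRT5 (-0.26), KRT14 (-0.50), TP63 (-0.14) and EPCAM (-0.31). With the length and GC trend removed, KRT5 (-0.07) and CDH1 (0.08) were not called. KRT14 (-0.17), TP63 and EPCAM were still called lower, and KRT6A, KRT17, DSG3, ITGB4 and SFN were called higher. Of 6 fibroblast markers 4 were tested and 3 fell, with sums of 17.1 to 21.9 CPM in control and 13.3 to 15.8 in shLIS1 libraries. Of 5 endothelial markers found 2 were tested, of which CDH5 fell, with sums of 12.9 to 17.2 and 7.33 to 8.94 CPM, while PECAM1 was at 0.453 CPM or less in every library. The 4 immune markers in the table summed to 0.347 CPM at most. The part of these markers in the results was not tested. SCC25 is a cell line, and these low levels do not by themselves show fibroblasts or endothelial cells. Their source was not tested. Bulk RNA does not show whether a fall came from less RNA per cell or from fewer cells of the line carrying the transcript. Control library 1 stood apart from controls 2 and 3 on the second principal component (27.1 against -16.4 and -14.1), so results that rest on it are given with and without it. Fold changes over all genes followed GC content, with a median log2 fold change of 0.28 in the quintile with the lowest GC and -0.28 in that with the highest. For that reason each Notch gene is also given with an offset that removes a smooth trend over transcript length and GC content from every library.

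The 10 Notch genes moved in both directions in shLIS1 cells. Of these, 6 fell, 1 rose and 3 did not pass an adjusted p of 0.05. Over all genes tested, 24.9% fell and 23.5% rose, 48.4% in either direction. The genes that fell were NOTCH1, JAG2, DLL1, HES1, HEY1 and NRARP, and the gene that rose was MAML1. The groups did not overlap for 8 of the 10, against 56.1% of all genes tested. With the length and GC offset, 4 fell (NOTCH3, DLL1, HES1 and HEY1), 1 rose (MAML1) and 5 did not pass, beside 24.8% lower and 17.1% higher among all genes. The median log2 fold change of the 10 was -0.27 without the offset and -0.10 with it, against -0.01 and -0.04 over all genes tested.

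**Figure D1:**
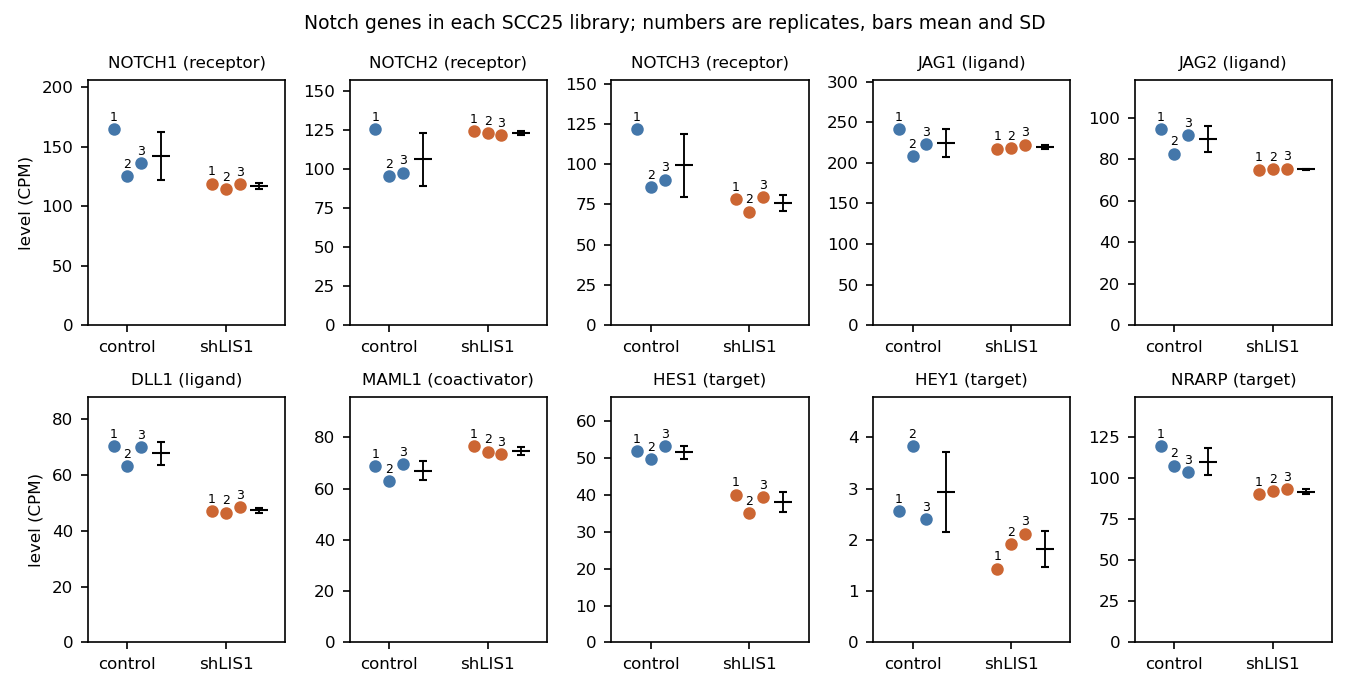
Level in CPM (vertical axis) of each Notch gene in the 3 control and 3 shLIS1 libraries, with the replicate number over each point and the mean and SD of the group as a bar beside it. DLL1 and HES1 lie lower in every shLIS1 library than in any control, while JAG1 overlaps. Control library 1 is the highest control for all 3 receptors, for the ligands JAG1, JAG2 and DLL1, and for NRARP.

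Of the receptors NOTCH1 was called lower without the offset. NOTCH2, with a positive log2 fold change, and NOTCH3, with a negative one, did not pass. NOTCH1 (ENSG00000148400, chromosome 9, 136494433 to 136546048, minus strand, build hg38), the main receptor of keratinocytes, was at 165, 125 and 136 CPM in the controls, in replicate order, and at 119, 114 and 118 CPM with the hairpin. Every shLIS1 library was below every control, and control library 1 was the highest. The mean fell from 142 ± 20.4 to 117 ± 2.65 CPM (SD over n = 3 libraries), a log2 difference of -0.28 with an SE of 0.08 (edgeR adjusted p = 0.014). Without control library 1 it was -0.16 and still called (adjusted p = 0.011). The call was lost without shLIS1 library 1, 2 or 3, with adjusted p from 0.0501 to 0.0634. With the length and GC offset the log2 fold change was -0.10 (adjusted p = 0.0545).

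NOTCH2 (ENSG00000134250, chromosome 1, 119911553 to 120100779, minus strand), a receptor that keratinocytes also carry, was at 126, 95.5 and 97.8 CPM in the controls and at 124, 123 and 122 CPM in the shLIS1 libraries. The groups overlapped through control library 1, while controls 2 and 3 were below all 3 shLIS1 libraries. The log2 fold change was 0.21, with an SE of 0.09 (95% interval 0.01 to 0.41) and did not pass (edgeR adjusted p = 0.073). It passed under 7 of 16 alternatives, among them DESeq2, where it was 0.22 (adjusted p = 0.0281). Without control library 1 it was 0.34 and also passed (edgeR adjusted p = 1.28e-06). With the offset it was 0.09 and did not pass (edgeR adjusted p = 0.164). NOTCH2 has near-identical partial copies, the NOTCH2NL genes, so its counts are uncertain. The 4 copies in the table held 1 to 38 counts per library, against 1922 to 2808 for NOTCH2.

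NOTCH3 (ENSG00000074181, chromosome 19, 15159038 to 15200995, minus strand), best known from vascular smooth muscle, was at 122, 85.6 and 90.5 CPM in the controls and at 78.4, 70.4 and 79.6 CPM in the shLIS1 libraries. All shLIS1 libraries were below all controls, and control library 1 was again the highest. The log2 fold change was -0.38, with an SE of 0.14 (95% interval -0.72 to -0.03, edgeR adjusted p = 0.0728). It passed under 10 of 16 alternatives, among them without control library 1, where it was -0.21 (adjusted p = 0.00347), and with the offset, where it was -0.20 (adjusted p = 0.0111).

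NOTCH2 made up a larger share of the receptor transcripts in every shLIS1 library than in any control. Shares were taken of the summed CPM per kilobase of the longest transcript, which cancels what a library has in common for the 3 receptors. NOTCH2 made up 25.8%, 26.5% and 25.5% of receptor transcripts in the controls and 33.3%, 34.6% and 32.8% in the hairpin libraries. Control library 1 lay between the other 2 controls, and the groups did not overlap. The mean rose by 7.66 points, from 25.9% ± 0.488 to 33.6% ± 0.934 (SD, n = 3 each). NOTCH1 made up 42.4% ± 1.07 of the pool in control and 39.1% ± 0.168 in shLIS1 cells, and NOTCH3 made up 31.7% ± 1.02 and 27.3% ± 1.09. The exact two-sided permutation test gave p = 0.1 for each of the 6 receptor and ligand shares (0.1 after Benjamini-Hochberg adjustment over the 6), the smallest that 3 against 3 libraries can give, so no share could pass 0.05. With the length and GC offset, an alternative chosen after seeing the data, the NOTCH2 difference was 3.36 points and the NOTCH3 difference went from -4.37 to -2.52 points. The NOTCH1 difference of -0.84 points no longer separated the groups (exact p = 0.4). NOTCH2 has a GC content of 49.4%, against 62.9% for NOTCH1 and 63.1% for NOTCH3.

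**Figure D2:**
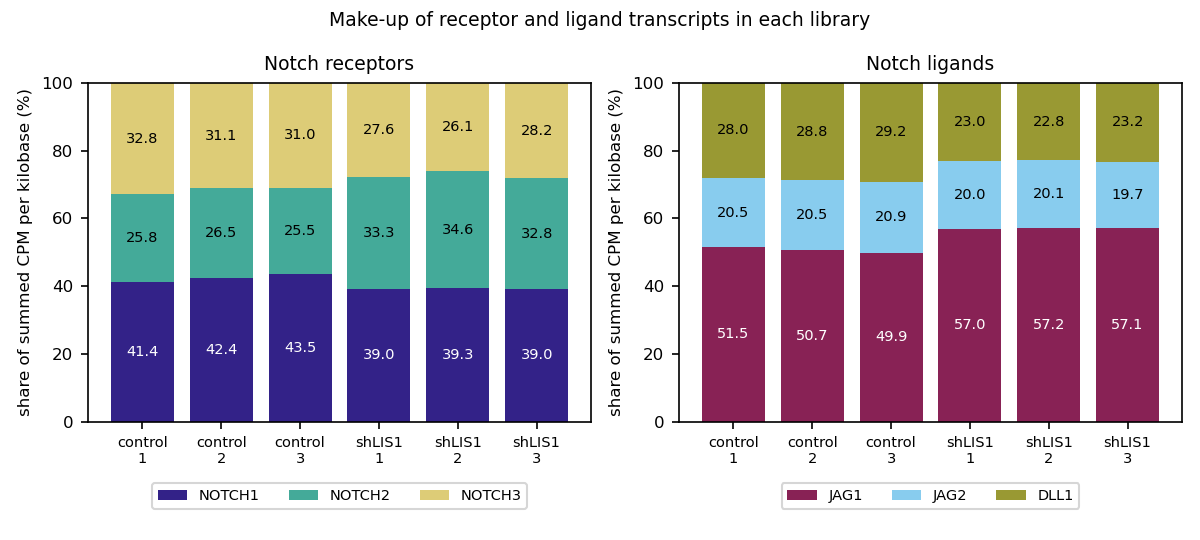
Share (vertical axis, percent) of the summed CPM per kilobase that each receptor (left) and each ligand (right) takes in every library. NOTCH2 takes 25.5% to 26.5% of the receptor pool in control and 32.8% to 34.6% in shLIS1 libraries, and DLL1 takes 28.0% to 29.2% and 22.8% to 23.2% of the ligand pool.

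Among the ligands DLL1 fell most and JAG1 did not pass. DLL1 (ENSG00000198719, chromosome 6, 170282206 to 170306565, minus strand), a Delta-type ligand found in the basal layer of human epidermis, was at 70.2, 63.0 and 69.7 CPM in control and 47.0, 46.4 and 48.3 CPM in shLIS1 libraries. The lowest control was well above the highest shLIS1 library. The mean fell from 67.6 ± 4.01 to 47.2 ± 0.973 CPM (SD over n = 3 libraries), a log2 difference of -0.52 with an SE of 0.07 (edgeR adjusted p = 1.64e-06). It was -0.34 with the offset (adjusted p = 3.58e-05), and DLL1 kept its call under all 16 alternatives. Its gene overlaps FAM120B on the opposite strand, and since no source used here says whether counting used strand, reads from the overlap cannot be assigned. FAM120B had a log2 fold change of 0.20 (edgeR adjusted p = 0.0253), the opposite direction.

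JAG2 (ENSG00000184916, chromosome 14, 105140982 to 105168824, minus strand), a Serrate-type ligand, was at 94.5, 82.7 and 91.7 CPM in control and 74.9, 75.1 and 75.5 CPM in shLIS1 libraries. The shLIS1 libraries were nearly equal to each other and below all controls. The mean fell from 89.6 ± 6.21 to 75.2 ± 0.297 CPM (SD over n = 3 libraries), a log2 difference of -0.25 with an SE of 0.06 (edgeR adjusted p = 0.00148). With the offset -0.04 was left and the call was lost (adjusted p = 0.488). JAG2 has a GC content of 64.0%.

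JAG1 (ENSG00000101384, chromosome 20, 10637684 to 10673999, minus strand), the other Serrate-type ligand, was at 241, 208 and 223 CPM in control and 217, 218 and 222 CPM in shLIS1 libraries. The shLIS1 values lay within the range of the controls. The log2 fold change was -0.03 (95% interval -0.15 to 0.09, edgeR adjusted p = 0.678), and it was 0.02 without control library 1. JAG1 took a larger share of the ligand pool in each shLIS1 library, at 57.0%, 57.2% and 57.1%, than in the controls, at 51.5%, 50.7% and 49.9%. That difference was 6.36 points, and 2.00 points with the offset. DLL1 took 28.0%, 28.8% and 29.2% of it in the controls and was lower in each shLIS1 library, with a mean difference of -5.65 points (-3.46 points with the offset). The share of JAG2 differed by -0.71 points without the offset and by 1.46 points with it.

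MAML1 (ENSG00000161021, chromosome 5, 179732822 to 179777283, plus strand), a Mastermind coactivator that bridges the Notch and RBPJ complex to histone acetyltransferases, was at 68.7, 62.8 and 69.5 CPM in control and 76.5, 74.4 and 73.6 CPM in shLIS1 libraries. All shLIS1 libraries were above all controls. The mean rose from 67.0 ± 3.65 to 74.8 ± 1.53 CPM (SD over n = 3 libraries), a log2 difference of 0.16 with an SE of 0.06 (edgeR adjusted p = 0.0334). The offset enlarged it to 0.25 (adjusted p = 4.52e-04). The call was lost without control library 2 (adjusted p = 0.124), without shLIS1 library 1, 2 or 3 (0.067 to 0.112), with upper quartile scaling (0.104) and with DESeq2 (0.0565).

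**Figure D3:**
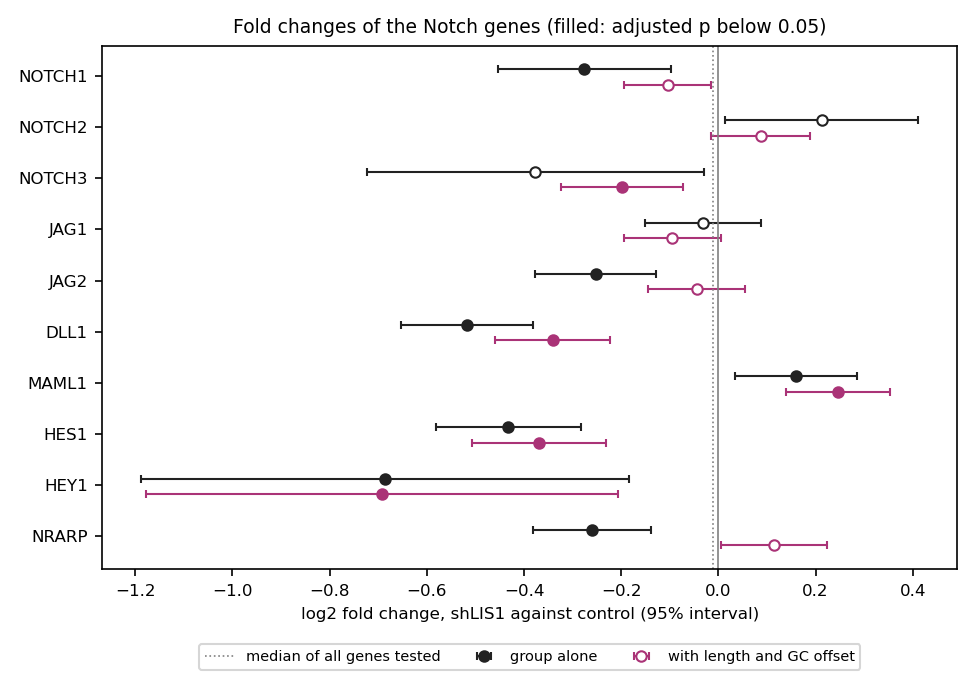
Log2 fold change of shLIS1 against control (horizontal axis) with its 95% interval for each Notch gene, from the fit on group alone (black) and from the fit with a length and GC offset (purple); filled points passed an adjusted p of 0.05 and the dotted line is the median of all genes tested. DLL1, HES1 and HEY1 stay below 0 in both fits, MAML1 stays above 0, and NRARP moves from -0.26 to 0.11.

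HES1 encodes a bHLH repressor that is the best known direct target of Notch. HES4, a close relative in the wider pathway list, also fell, and the promoters of both are shown because they carry the same arrangement of RBPJ motifs. The windows run from 250 bases before to 50 bases after the RefSeq gene start (build GRCh38.p14), for HES1 at chr3:194135898-194136197 on the plus strand and for HES4 at chr1:1000048-1000347 on the minus strand. The RefSeq start of HES1 is that of the count table, and the start of HES4 lies 75 bases from it. Capitals mark the RBPJ motif GTGGGAA and, on the opposite strand, its form GTGTGAA, which was added to the search after the HES1 window had been read and appears here as TTCACAC.
HES1: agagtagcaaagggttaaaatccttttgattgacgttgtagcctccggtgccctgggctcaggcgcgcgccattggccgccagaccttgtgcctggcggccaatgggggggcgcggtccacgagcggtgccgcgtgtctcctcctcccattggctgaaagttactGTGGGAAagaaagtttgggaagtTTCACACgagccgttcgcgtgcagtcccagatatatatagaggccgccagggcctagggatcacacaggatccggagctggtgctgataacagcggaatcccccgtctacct
HES4: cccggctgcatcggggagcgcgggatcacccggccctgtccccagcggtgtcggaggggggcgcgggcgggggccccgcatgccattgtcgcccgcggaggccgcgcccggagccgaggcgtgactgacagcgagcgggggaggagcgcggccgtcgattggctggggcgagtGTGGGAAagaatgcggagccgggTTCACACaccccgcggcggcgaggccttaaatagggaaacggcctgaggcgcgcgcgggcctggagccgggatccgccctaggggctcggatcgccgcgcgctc
In HES1 the first motif starts 85 bases before the gene start, and in HES4 it starts 77 bases before it. In both promoters 16 bases separate the pair. The motif GTGGGAA, on either strand, occurred in 6.28% of 27305 RefSeq promoter windows, and GTGTGAA in 3.03%. The facing pair with a gap of 16 bases occurred in 2 of the 27305 windows, those of HES1 and HES4. Since the second form and the gap were read from the HES1 window, its own match was given. With any gap of 1 to 60 bases the pair occurred in 11 windows, among them those of FST, VOPP1 and ZNF674. Windows were found for 8 of the 10 Notch genes, not for DLL1 and HEY1. Neither form was found in those of NOTCH1, NOTCH2, NOTCH3, JAG1, JAG2, MAML1 and NRARP, though the NOTCH2 window lies 31117 bases from the start in the count table. A match of letters is a description and does not show binding.

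HES1 (ENSG00000114315, chromosome 3, 194136148 to 194138732, plus strand) was at 51.9, 49.8 and 53.3 CPM in control and 40.1, 35.1 and 39.5 CPM in shLIS1 libraries. The groups were far apart, and control library 1 lay between controls 2 and 3. The mean fell from 51.6 ± 1.74 to 38.2 ± 2.75 CPM (SD over n = 3 libraries), a log2 difference of -0.43 with an SE of 0.07 (edgeR adjusted p = 4.33e-05). With the offset it was -0.37 (adjusted p = 9.06e-05), and the call was kept under all 16 alternatives, with log2 fold changes from -0.47 to -0.37. HES4 fell from 34.5 ± 3.65 to 23.2 ± 0.468 CPM (log2 fold change -0.57 with SE 0.08, edgeR adjusted p = 1.02e-05), and with the offset it was at -0.24 (adjusted p = 0.0182).

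HEY1 (ENSG00000164683, chromosome 8, 79762371 to 79767857, minus strand), a bHLH repressor related to HES1, was low. Its counts were 40, 77 and 49 in control and 31, 34 and 49 in shLIS1 libraries, or 2.57, 3.83 and 2.41 CPM and 1.44, 1.92 and 2.12 CPM. The groups did not overlap in CPM, but the gap between the lowest control and the highest shLIS1 library was small beside the spread. The log2 fold change was -0.69, with an SE of 0.24 (edgeR adjusted p = 0.0231) and -0.69 with the offset (adjusted p = 0.0203). The call was lost without control library 2 (-0.43, adjusted p = 0.194), without shLIS1 library 1 (-0.54, adjusted p = 0.111) and with DESeq2 (adjusted p = 0.0836).

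NRARP (ENSG00000198435, chromosome 9, 137299631 to 137302271, minus strand), an ankyrin repeat protein that is induced by Notch and destabilizes its intracellular domain, was at 119, 107 and 103 CPM in control and 90.1, 91.7 and 93.0 CPM in shLIS1 libraries. All shLIS1 libraries were below all controls. The mean fell from 110 ± 8.26 to 91.6 ± 1.44 CPM (SD over n = 3 libraries), a log2 difference of -0.26 with an SE of 0.06 (edgeR adjusted p = 8.90e-04). Its transcript is short, at 1770 bases, and has the highest GC content of the 10, 67.3%. With the offset the log2 fold change was 0.11 (95% interval 0.01 to 0.22, adjusted p = 0.0837), so the direction turned and the call was lost.

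The Notch genes fell into different GC classes. In the quintile of tested genes with the highest GC, 51.4% of genes fell and 3.42% rose, and 4 of the 5 Notch genes there fell: NOTCH1, JAG2, DLL1 and NRARP, with NOTCH3 not passing. In the middle quintile 20.9% of genes fell, and 2 of the 4 Notch genes there fell: HES1 and HEY1, with NOTCH2 and JAG1 not passing. MAML1, in the quintile between these, rose, as did 7.70% of the genes there. The smooth trend alone came to a log2 difference of -0.37 for NRARP, -0.20 for JAG2, -0.17 for DLL1 and NOTCH3 and -0.16 for NOTCH1. It was -0.06 for HES1, 0.01 for HEY1 and 0.14 for NOTCH2. Whether the trend is technical was not tested.

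**Figure D4:**
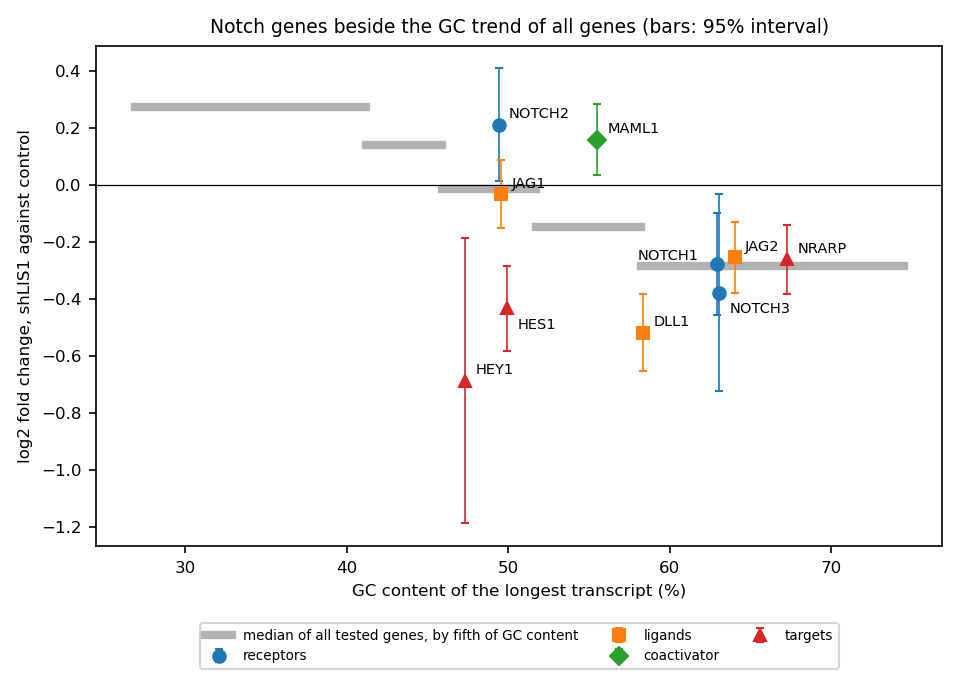
Log2 fold change of shLIS1 against control (vertical axis, with 95% interval) against the GC content of the longest transcript (horizontal axis, percent) for the 10 Notch genes; grey bars give the median of all tested genes in each GC quintile. NOTCH1, JAG2 and NRARP lie close to the grey bar of their quintile at -0.28, while HES1, HEY1 and DLL1 lie below theirs. NOTCH3, at -0.38, also lies below its bar of -0.28, with a wide interval that includes the bar.

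Per kilobase of the longest transcript, NRARP was the most abundant of the 10 in control cells (62.1 ± 4.67 CPM per kilobase, SD, n = 3), followed by JAG1 (37.7 ± 2.83), HES1 (32.7 ± 1.10) and DLL1 (21.3 ± 1.26). JAG2 (15.4 ± 1.06) and NOTCH1 (15.3 ± 2.20) did not differ beyond their spread, nor did MAML1 (11.7 ± 0.637) and NOTCH3 (11.5 ± 2.27). NOTCH2 (9.34 ± 1.48) was below NOTCH3 in each control library, as the shares show. HEY1 was lowest (1.28 ± 0.339). In shLIS1 cells NRARP (51.8 ± 0.812), JAG1 (36.9 ± 0.457) and HES1 (24.2 ± 1.74) were again the highest. NOTCH2 was at 10.8 ± 0.112 and NOTCH3 at 8.79 ± 0.575 there. Part of this order depends on the length used. With the union of all exons, an alternative chosen after seeing the data, NOTCH2 (7.31 ± 0.0762) was below NOTCH3 (8.10 ± 0.530) in shLIS1 cells, and in control cells JAG1 (24.1 ± 1.81) and HES1 (25.0 ± 0.844) did not differ beyond their spread.

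The rest of the pathway moved in both directions. Of 77 further pathway genes, 71 were tested, of which 20 rose, 21 fell and 30 did not pass, with a median log2 fold change of -0.04 against -0.01 for all genes. With the offset 15 rose and 16 fell. Over all genes tested 23.5% rose and 24.9% fell, or 17.1% and 24.8% with the offset. In either direction 57.7% of the 71 were called, against 48.4% of all genes. By role that share was 50% for glycosylation, cleavage and coactivator genes, with 8 tested in each. It was also 50% for further receptors and ligands, where only 2 genes were tested, DLK2 (lower) and DLL3 (not called). It was 75% for ubiquitylation and endocytosis, 78.6% for corepressors, 20% for further HES and HEY genes and 40% for other targets. All these shares are without the offset. With it, 2 rose and 6 fell of 16 for ubiquitylation and endocytosis, and 2 rose and 4 fell of 14 corepressors. Rises and falls with the offset were 0 and 1 for further receptors and ligands, 3 and 1 for glycosylation and 1 and 2 for cleavage. They were 3 and 0 for coactivators, 0 and 1 for further HES and HEY genes and 4 and 1 for other targets. Whether a role group differs from all genes was not tested. NOTCH4 and DLL4, which mark endothelium, did not pass the filter on low counts (means of at most 0.222 CPM), and DLK1 was not in the table. DLK2, a Notch ligand-like inhibitor, fell from 9.92 to 5.83 CPM (log2 fold change -0.77, edgeR adjusted p = 2.91e-05; -0.47 with the offset).

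Of 8 genes that glycosylate the receptor, 2 rose and 2 fell. The fringe MFNG, which adds N-acetylglucosamine to O-fucose on Notch, rose from a low 3.26 to 4.50 CPM (log2 fold change 0.46, and 0.75 with the offset), and RFNG, another fringe, fell (-0.58, and -0.21 with the offset, where it was not called). The MFNG call was lost on leaving out control library 1 (0.41, adjusted p = 0.0697), control library 2 or shLIS1 library 2 or 3 (0.0583 to 0.133) and with DESeq2 (0.116). The xylosyltransferases GXYLT1 (0.42) and GXYLT2 (-0.45) moved in opposite directions, and GXYLT1 was at -0.04 with the offset, while GXYLT2 was not called with DESeq2 (adjusted p = 0.0804).

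Of 8 receptor cleavage genes, 2 rose and 2 fell. The rises were ADAM10, the protease of the first cut after ligand binding, from 179 to 260 CPM (log2 fold change 0.53 with SE 0.06, edgeR adjusted p = 1.17e-07), and ADAM17, a related protease (0.29). Neither was called with the offset (0.03 and 0.05). The gamma-secretase subunits APH1A (-0.48) and PSENEN (-0.60) fell, and both were also called with the offset (-0.30 and -0.50).

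Of 16 tested genes for ubiquitylation and endocytosis, 5 rose and 7 fell. FBXW7, the ubiquitin ligase that marks the Notch intracellular domain for degradation, rose from 7.16 to 13.1 CPM (log2 fold change 0.87 with SE 0.11, edgeR adjusted p = 2.26e-06; 0.71 with the offset). The Deltex gene DTX3L rose (0.49, and 0.27 with the offset), while DTX2, another Deltex ligase, fell (-0.60, and -0.33 with the offset). MIB1, which ubiquitylates ligands so that they can be endocytosed, rose by 0.48 but was at -0.01 with the offset. MIB2 (-0.48) and the endocytic adaptor EPN1 (-0.41) fell, and both were called with the offset too (-0.18 and -0.49). The offset for EPN1 rests on a longest transcript of 16219 bases, and other lengths were not tried for it. NEURL1B, a Neuralized ligase acting on ligands, was named after its value was seen. It fell from 13.4 to 6.12 CPM (log2 fold change -1.12, edgeR adjusted p = 2.1e-06, and -0.97 with the offset). Control library 1 was the highest, at 16.8 CPM against 11.2 and 12.1 in controls 2 and 3. The shLIS1 libraries were at 6.17, 6.39 and 5.81 CPM. The NEURL1B fold change without control library 1 is not given here.

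Of 8 nuclear coactivator genes, 4 rose and 0 fell. With the offset none of these 4 was called, and 3 others were called higher: EP300 (0.27), CREBBP (0.27) and KAT2A (0.33). The 14 corepressor genes split into 4 rises and 7 falls. RBPJ, the DNA-binding core of the complex, rose from 36.6 to 52.4 CPM (log2 fold change 0.52 with SE 0.07, edgeR adjusted p = 3.19e-06), but was at 0.10 and not called with the offset. KAT2B (0.53) and MAML2 (0.24), which had the next smallest p, were not called with the offset either, and KAT2B was also not called without shLIS1 library 3 (adjusted p = 0.0696). Among corepressors NCOR1 (0.42), KDM5A (0.36) and CIR1 (0.33) rose, and of these 3 NCOR1 was called with the offset (0.17). The deacetylase HDAC1 (-0.28), RITA1, which exports RBPJ from the nucleus (-0.35), and CTBP1 (-0.25) fell, and HDAC1 was called with the offset (-0.25).

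Of 5 further HES and HEY genes that were tested, HES4 fell and 4 did not pass. All 5 had negative log2 fold changes without the offset, from -0.90 (HEY2) to -0.04 (HES2). With the offset HES2 was at 0.10 and HES6 at 0.21, neither of them called. Of 10 other genes known as Notch targets or as responsive to Notch in keratinocytes, 3 rose and 1 fell. MYC rose from 277 to 375 CPM (log2 fold change 0.43, edgeR adjusted p = 3.79e-06; 0.56 with the offset). The differentiation genes IVL (2.37) and KRT1 (1.42) rose from low levels of 1.42 and 1.04 CPM, while KRT10, the more abundant differentiation keratin of the list, was at 18.2 and 16.3 CPM (-0.16, adjusted p = 0.2; -0.07 with the offset). TP63, the master regulator of basal keratinocytes, fell (-0.14; -0.40 with the offset). The TP63 call was lost where genes of low counts were kept in the test (adjusted p = 0.155), and also without control library 2 or 3 or shLIS1 library 1 or 2 (0.0613 to 0.0908). CDKN1A, a Notch target in mouse keratinocytes, had a log2 fold change of 0.06 (adjusted p = 0.593) and was called higher with the offset (0.29).

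**Figure D5:**
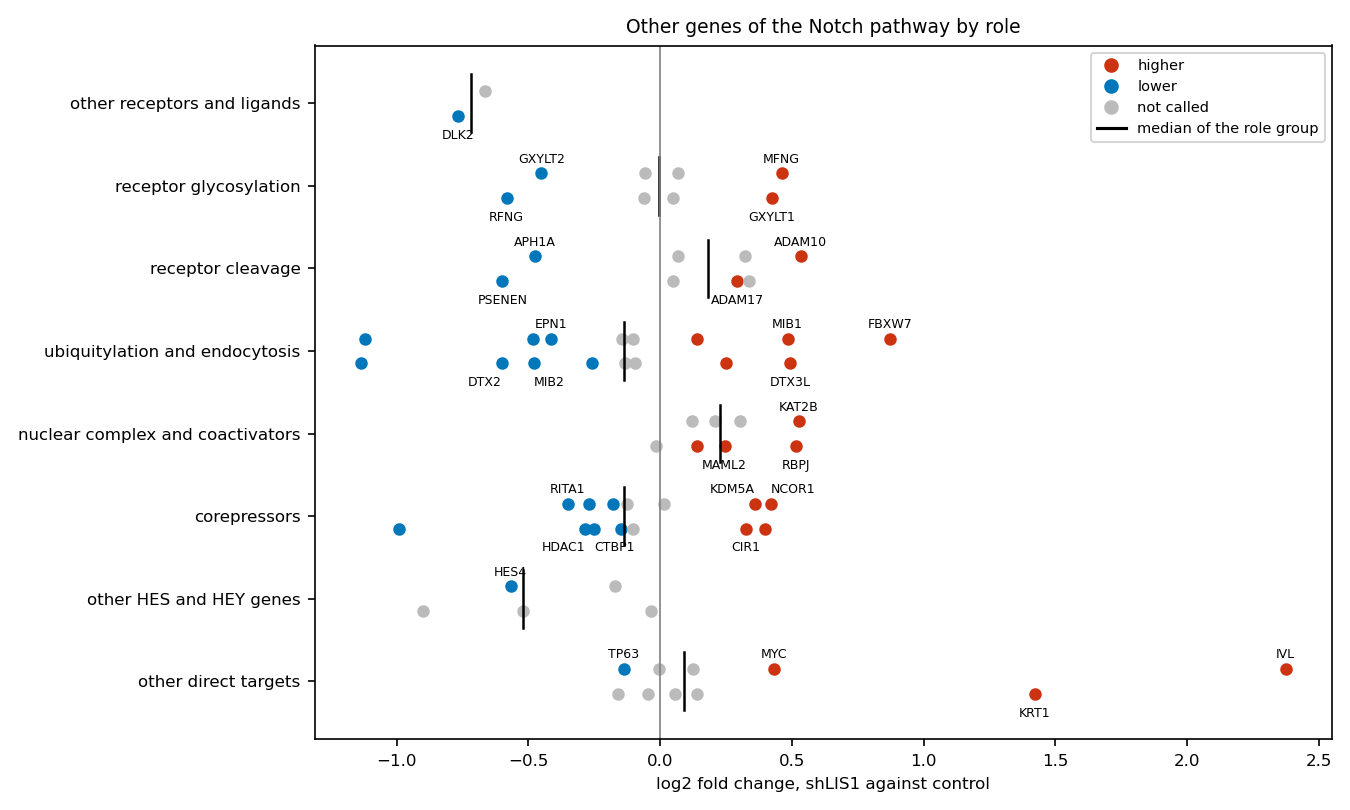
Log2 fold change of shLIS1 against control (horizontal axis) for the 71 tested genes of the wider pathway, grouped by role, without the length and GC offset; red and blue points passed an adjusted p of 0.05, grey points did not, and the black line is the median of the role group. Coactivators lie at or above 0 apart from 1 gene at -0.02, and the 5 further HES and HEY genes lie below 0.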

How the data were processed

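Counts per gene are the raw whole numbers that the authors deposited, not normalized, with 1 column per library. Trizol was used to extract RNA, which was captured on oligo(dT) beads and made into libraries with dUTP in the second strand, per the labels' protocols. Build hg38 is named in the submitters' processing notes. The sources used here do not name the aligner, counting tool, annotation or strand setting.

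Groups and replicate numbers came from the labels. All libraries were treated as 1 batch, since the labels name no separate batches. The test was that of edgeR 4.0.16, run in R 4.3.3 (filterByExpr with minimum count 10 and minimum total 15, TMM, glmQLFit with robust=TRUE, glmQLFTest on group), with Benjamini-Hochberg adjustment over 14964 genes and a threshold of 0.05. SE is the absolute log2 fold change over the root of F. Simulated counts with known changes in a small part of the genes served to check it. They held no trend over length or GC content and no outlying library, so the check does not cover these features. For length and GC content the longest transcript of each gene in GENCODE 29 was used (protein-coding where there is one), found for 96.8% of genes tested. The offset smooths each library's deviation from the mean library over both with mgcv 1.9.3 (basis 6 per axis). Shares were compared by exact permutation, and their offset version was chosen after seeing the data. Promoters are from RefSeq. Other alternatives used limma 3.58.1 and DESeq2 1.42.0.

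The 10 genes, the pathway list and the alternatives, the offset included, were chosen with earlier results of these data known. Of the pathway list, from which 1 gene is not reported here, the text names up to 3 rises and 3 falls with the smallest p per role.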

Additional observations from a re-analysis of the deposited data

How the results depend on the processing

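DLL1 and HES1 kept their direction and call under all 16 alternatives, while the count of Notch genes that rose (1) depended on NOTCH2 and MAML1. It was 2 with RLE size factors, with no filter on low counts, without robust estimation, with the replicate block and with limma-voom, 0 with upper quartile scaling, and 0 to 2 on leaving out 1 library. The causes of these changes were not tested. The count that fell (6) was 4 to 7. With the length and GC offset, NRARP turned to 0.11 on the log2 scale (0.12 with the replicate block), GXYLT1 to -0.0354 (-0.0342) and MIB1 to -0.0124 (-0.0106), the uncalled HES2 and HES6 to 0.10 and 0.21, and the JAG2 share difference to 1.46 points. The offset by its construction removes the trend over length and GC content. JAG1 turned to 0.0178 without control library 1, and it ran from -0.074 to 0.0178 on leaving out 1 library. Same-numbered libraries did not deviate together (r from -0.038 to 0.032), so the numbers are not treated as pairs. HEY1 had 31 to 77 counts per library, which limits its precision.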
